A study of Arabidopsis thaliana with 14 samples.

Results

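Late embryogenesis abundant (LEA) proteins are small, water-loving proteins that plants store in drying seeds. The 9 genes described here, of 25414 named genes in the table, were chosen by locus: 7 dehydrins (RAB18, XERO1, LTI30, AT2G21490, ERD10, ERD14 and COR47) and both listed genes of the LEA14 group (AT1G01470 and AT2G46140). All 9 were present and all 9 passed the filter on low values. Their transcripts were followed in whole embryos of Arabidopsis thaliana, ecotype Col-0, at 7 stages: zygote, octant, globular, heart, torpedo, bent and mature. Each stage had 2 biological replicates, 14 libraries in all, and no treatment or mutant was part of the design. RNA from isolated embryos was amplified before library preparation.

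Dehydrins lack a fixed fold in solution and carry lysine-rich repeats, the K-segments, which can form helices against membranes and other proteins when water is lost. They are known as products of abscisic acid, cold and drought responses in leaves and of the desiccation phase in seeds. LEA14-type proteins form a separate family, LEA_2, with a stable folded domain. Abscisic acid acts on such genes largely through bZIP factors that bind the abscisic acid response element (ABRE, core ACGTG), and cold through CBF/DREB factors that bind the dehydration-responsive element (DRE, core CCGAC).

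The genes sit at 7 places in the genome, with coordinates in the RefSeq assembly TAIR10.1. LTI30 (chr3:18940643-18941611) and XERO1 (chr3:18941925-18942940) were neighbours on the plus strand, 313 bases apart with 0 annotated genes between them. COR47 (chr1:7084409-7086873) and ERD10 (chr1:7087903-7089606) were neighbours on the minus strand, 1029 bases apart with 0 genes between them. ERD14 (chr1:28586663-28587931), AT1G01470 (chr1:171525-172948), AT2G21490 (chr2:9205990-9207125) and RAB18 (chr5:26518277-26519447) were on minus strands, and AT2G46140 (chr2:18958999-18960645) on the plus strand. RAB18 overlapped PLP3b, on the other strand, by 11 bases, 0.939% of its length, and PLP3b itself stood between 141 and 1195 normalised reads. None of the 9 genes shared an exact 50-base word of exon sequence with another gene. Whether the reads themselves told neighbours in a tandem pair apart was not tested.

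The 200 bases before the annotated start are shown for the tandem pairs and for 2 genes with a steep late rise, to set genes of unlike stage patterns side by side. They are written 5′ to 3′ on the gene's strand, from the RefSeq genome TAIR10.1, with capitals for ACGTG or CCGAC on either strand. The windows are XERO1 chr3:18941725-18941924 and LTI30 chr3:18940443-18940642 on the plus strand, and AT1G01470 chr1:172949-173148, AT2G21490 chr2:9207126-9207325, ERD10 chr1:7089607-7089806 and COR47 chr1:7086874-7087073 on the minus strand.
XERO1: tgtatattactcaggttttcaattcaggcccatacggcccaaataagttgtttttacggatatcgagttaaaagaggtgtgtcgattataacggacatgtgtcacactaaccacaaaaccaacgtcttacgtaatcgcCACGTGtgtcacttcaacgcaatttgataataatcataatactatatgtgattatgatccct
LTI30: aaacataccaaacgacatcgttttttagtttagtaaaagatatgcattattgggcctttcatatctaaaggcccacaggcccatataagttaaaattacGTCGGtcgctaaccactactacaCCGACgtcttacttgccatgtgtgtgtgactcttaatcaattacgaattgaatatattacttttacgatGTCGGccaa
AT1G01470: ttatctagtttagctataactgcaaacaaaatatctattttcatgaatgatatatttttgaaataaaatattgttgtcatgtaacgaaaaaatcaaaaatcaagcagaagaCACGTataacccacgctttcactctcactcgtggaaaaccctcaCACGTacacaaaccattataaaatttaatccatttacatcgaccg
AT2G21490: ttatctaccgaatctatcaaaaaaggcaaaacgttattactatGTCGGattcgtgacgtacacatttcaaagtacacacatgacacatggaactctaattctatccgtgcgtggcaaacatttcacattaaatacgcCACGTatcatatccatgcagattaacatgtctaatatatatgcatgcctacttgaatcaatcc
ERD10: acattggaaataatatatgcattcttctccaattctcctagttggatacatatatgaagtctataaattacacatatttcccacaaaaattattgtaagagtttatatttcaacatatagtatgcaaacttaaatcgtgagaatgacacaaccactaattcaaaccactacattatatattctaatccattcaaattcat
COR47: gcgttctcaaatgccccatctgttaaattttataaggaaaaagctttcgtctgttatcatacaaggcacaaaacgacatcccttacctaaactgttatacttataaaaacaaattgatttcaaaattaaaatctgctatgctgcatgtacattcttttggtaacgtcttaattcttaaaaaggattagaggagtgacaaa
ACGTG occurred at 1 place in XERO1, where its 2 matches overlap in the palindrome CACGTG, at 2 places in AT1G01470 and at 1 in AT2G21490. Elsewhere ERD14 and AT2G46140 each held 1 match, and RAB18, whose window lies inside PLP3b, held 3. LTI30 held 0 ACGTG but 3 CCGAC matches, and AT2G21490 held 1 CCGAC. ERD10 and COR47 held neither core in this window. Their annotated exons were 1624 and 2320 bases long, with longest coding lengths of 783 and 798 bases. How far the windows lie from the coding starts was not measured, and sequence outside the windows was not searched. Of 27443 windows of protein-coding genes, 19.8% held ACGTG at least once and 7.47% held at least 2 matches. The 7.47% includes windows with a single palindrome CACGTG, which counts there as 2 matches, so it is not a share of windows with 2 places. CCGAC occurred at least once in 10.1% of windows and at least 2 times in 1.08%. The RY core CATGCA, read by seed B3 factors, had 2 matches in AT2G21490 and 1 in COR47, against 6.69% of windows with any. These are matches of letters, with no binding measured.

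Levels are the deposited normalised reads, scaled so that each library sums to 20000000. The libraries rested on 6078186 to 30803336 reads, and the replicates of a stage correlated across genes with r of 0.949 to 0.980, genes not being independent. Changes were tested with limma on log2(value + 4) over 18744 genes, adjusted by Benjamini-Hochberg, so that fold changes of low genes are understated. With 2 libraries a stage, limma p-values measure the spread within stages, pooled over all 7 stages and moderated across genes. They cover no spread beyond these 14 libraries. Of the markers, 6 of 6 embryo genes were in the table and their summed value lay between 514 and 37864. Seed coat markers (4 of 8 in the table) summed to 4341 and 2782 in zygotes and to 15058 and 15916 in octants. From the globular stage on they summed to at most 388, falling to 4.69 and 4.89 in mature embryos. Endosperm markers (7 of 8) summed to between 117 in zygote library 1 and 968 in bent library 2. EPR1 gave most of the bent sums, with a mean of 838, while PHE1 and FWA were highest in octants and 0 in bent embryos.

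The first change in the series was a fall. From zygote to octant 8 of the 9 genes fell and 0 rose, while 13.1% of all tested genes fell and 44.7% rose. The median log2 change of the 9 genes was -3.46, and that of all tested genes was 0.92. AT2G46140 was the exception, with 131 and 136 in zygotes and 273 and 160 in octants (log2 change 0.63, limma adjusted p = 0.30). All 8 falls passed under every alternative setting and with any library left out, with a highest adjusted p of 0.0336 for AT1G01470. When libraries were centred on their medians, the split over all genes was 3966 higher and 5519 lower, against 8381 and 2458 in the scaling as deposited. Of the 4 seed coat markers in the table, 3 rose over the same step. INO did not, with means of 761 in zygotes and 596 in octants. BAN gave most of the seed coat sum, with means of 2514 in zygotes and 13199 in octants. The part of seed coat RNA in these falls was not tested. The values are shares of a library. In whole embryos, a smaller share of cells with a transcript, less transcript per cell and more of other RNA cannot be told apart.

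**Figure D1:**
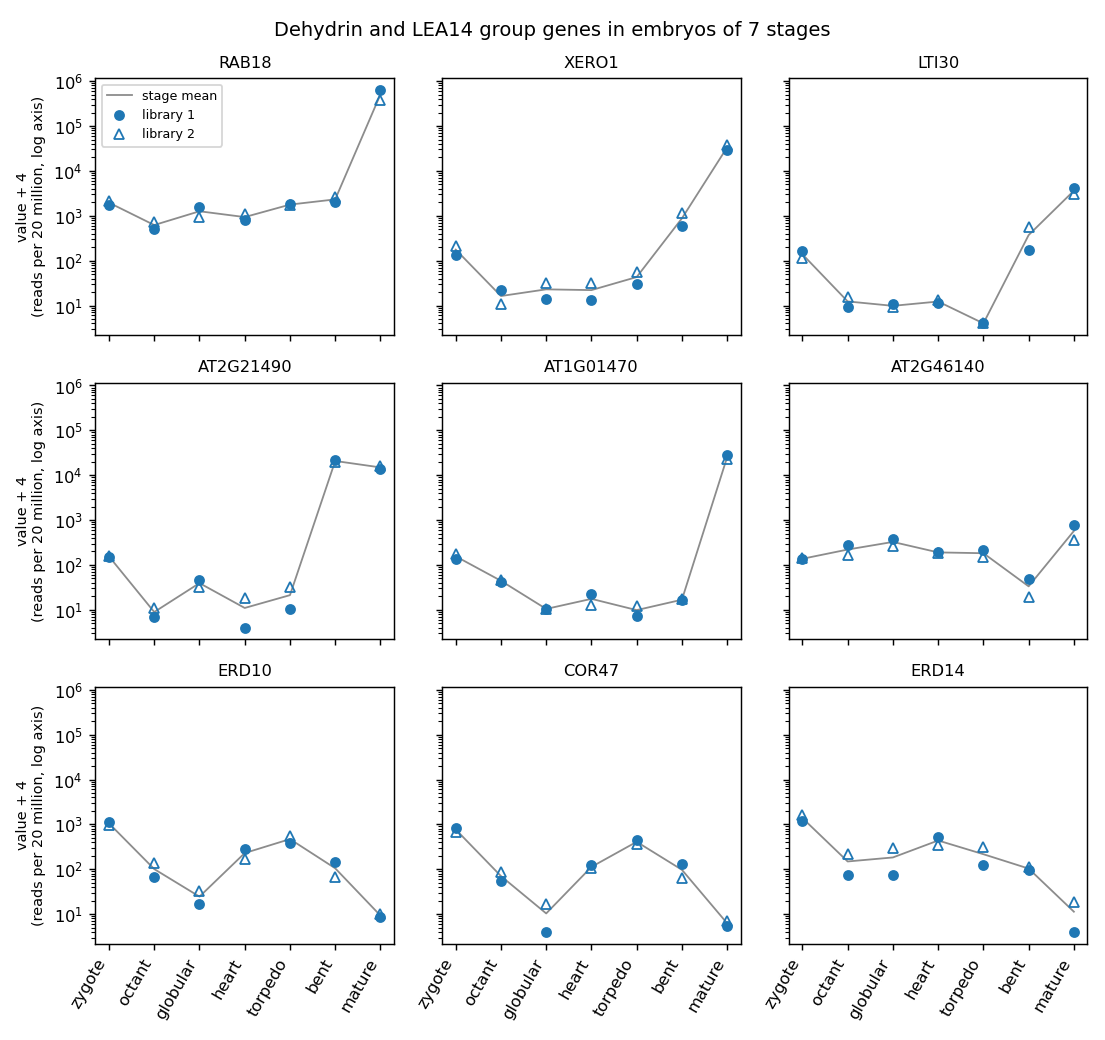
Normalised reads plus 4 (log axis) of the 9 genes at the 7 stages, with filled circles for library 1, open triangles for library 2 and lines through the stage means. RAB18, XERO1, LTI30, AT2G21490 and AT1G01470 end far above their zygote level, AT2G46140 modestly above it, and ERD10, COR47 and ERD14 below 20.

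RAB18, the dehydrin best known as a marker of abscisic acid response, had the highest mean per kilobase of exon among the 9 in every stage but the bent stage. It stood at 1761 and 2147 in zygotes, 507 and 727 in octants, 1570 and 943 in globular, 785 and 1077 in heart, 1850 and 1692 in torpedo, 2038 and 2592 in bent and 631871 and 382216 in mature embryos. Both mature libraries lay far above the other 12, which all lay between 507 and 2592. Relative to the zygote the octant value was lower (log2 change -1.67 ± 0.39 SE, limma adjusted p = 0.0019), and none of the 4 steps from octant to bent passed the test in the deposited scaling. The step from octant to globular (1.00, limma adjusted p = 0.054) passed with upper-quartile scaling (log2 change 1.59, adjusted p = 0.0066), with median-centred libraries (1.79, adjusted p = 0.0034), in edgeR (adjusted p = 0.031) and in DESeq2 (0.00053). It also passed without globular library 2 (adjusted p = 0.0368) or either mature library (0.0372 for both). The step from globular to heart passed as a fall with median-centred libraries (-1.23, adjusted p = 0.036) and in DESeq2 (-1.14, 0.021), and that from torpedo to bent as a rise in DESeq2 (1.10, adjusted p = 0.033). From bent to mature the mean went from 2315 ± 391 to 507044 ± 176533 (SD, n = 2), 219-fold, with a log2 change of 7.74 ± 0.39 and a limma adjusted p of 2.3e-09. RAB18 alone then took 3.16% of all reads in mature library 1 (95% Wilson interval 3.15 to 3.17%) and 1.91% in library 2, ranking 1 and 2 among all genes, whereas before the mature stage it ranked between 709 and 5064. Intervals here cover counting error only.

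AT2G21490, annotated as a dehydrin of the LEA family, reached its high level a stage earlier. Its values were 145 and 156 in zygotes, 3.10 and 6.76 in octants, 42.8 and 28.0 in globular, 0 and 14.01 in heart, 6.56 and 27.9 in torpedo, 22029 and 19497 in bent and 14055 and 15765 in mature embryos. The last 4 libraries lay together, far above the other 10. From torpedo to bent it rose by 10.14 ± 0.62 on the log2 scale (limma adjusted p = 1.3e-07), and from bent to mature the change of -0.48 ± 0.62 did not pass (adjusted p = 0.55). Its early calls rested on few reads. The rise from octant to globular (2.15, adjusted p = 0.014) was lost without octant library 1 (adjusted p = 0.0955) or globular library 1 (0.0741), and the fall from globular to heart (-2.19, adjusted p = 0.014) without globular library 1 (0.0825) or heart library 1 (0.208). Without heart library 2 a rise from heart to torpedo passed (adjusted p = 0.027).

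XERO1, a further dehydrin, rose in 2 steps. It gave 132 and 212 in zygotes, 17.8 and 6.76 in octants, 9.87 and 28.0 in globular, 9.06 and 27.0 in heart, 26.2 and 51.9 in torpedo, 600 and 1143 in bent and 29201 and 37852 in mature embryos. No library between octant and torpedo exceeded 51.9, and the bent and mature libraries formed separate, higher groups. The step into the bent stage was 22.3-fold (log2 change 4.34 ± 0.58, limma adjusted p = 0.00011) and the step into maturity 38.5-fold (5.32 ± 0.58, limma adjusted p = 2.2e-06).

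LTI30, also called XERO2, is a cold-induced dehydrin that binds membrane lipids. It was measured at 158 and 111 in zygotes, 5.42 and 11.3 in octants, 6.58 and 5.09 in globular, 7.55 and 9.01 in heart, 0 and 0 in torpedo, 167 and 567 in bent and 4146 and 3083 in mature embryos. Both torpedo libraries held 0 reads, in 36901098 reads together, which allows up to 1.63 normalised reads over the stage at 3 reads. Against that limit the bent mean was at least 226-fold higher (fitted log2 change 6.29 ± 0.54, limma adjusted p = 2.2e-06). The fall from heart to torpedo was called (-1.62, limma adjusted p = 0.041) but the call was lost with a pseudocount of 16 (adjusted p = 0.349), with no filter (0.0614), with upper-quartile scaling (0.0964) and without either library of the heart, torpedo or zygote stage (adjusted p = 0.0539 to 0.152). The last step was 9.85-fold (3.52 ± 0.54, limma adjusted p = 5.5e-05).

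ERD10 and COR47, acidic dehydrins of the cold and dehydration response in leaves, moved up and down more than once and ended near 0. ERD10 stood at 1131 and 969 in zygotes, 63.5 and 131 in octants, 13.2 and 28.0 in globular, 285 and 166 in heart, 380 and 552 in torpedo, 139 and 63.0 in bent and 4.69 and 5.87 in mature embryos. COR47 stood at 842 and 690, 51.8 and 81.1, 0 and 12.7, 118 and 100, 440 and 371, 127 and 59.7, and 1.56 and 2.93 over the same stages. Both genes were highest in zygotes, low in globular embryos, high again in torpedo embryos and lowest in mature embryos for ERD10, with COR47's globular and mature values overlapping. From globular to heart ERD10 rose by 3.24 ± 0.52 and COR47 by 3.78 ± 0.59 on the log2 scale (limma adjusted p = 0.00041 and 0.00037). From bent to mature they fell by 3.40 ± 0.52 and 3.88 ± 0.59 (limma adjusted p = 4.7e-05 and 5.1e-05), which left 3 and 6 reads of ERD10 and 1 and 3 reads of COR47 in the mature libraries.

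The steps between were less firm. ERD10's fall from octant to globular (-2.02, limma adjusted p = 0.0066) was lost with median-centred libraries (adjusted p = 0.0562) and without octant library 2 (0.0934) or globular library 1 (0.0548), while COR47's (-3.07, adjusted p = 0.00093) passed throughout. COR47's rise from heart to torpedo (1.86, limma adjusted p = 0.033) was lost with a pseudocount of 1 (0.156), with no filter (0.0526), with upper-quartile scaling (0.0638), with median-centred libraries (0.0788) and without any of the 4 libraries compared, and ERD10's (1.06, adjusted p = 0.15) was not called. From torpedo to bent both fell, ERD10 with a log2 change of -2.24 (limma adjusted p = 0.0053) and COR47 with -2.16 (0.014). Those falls were lost without torpedo library 2 (adjusted p = 0.0531 and 0.0538) and without bent library 2 (0.0747 and 0.147), and COR47's also without torpedo library 1 (0.0934), with a pseudocount of 1 (0.0938), with upper-quartile scaling (0.0865) and with median-centred libraries (0.0775).

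ERD14, a related acidic dehydrin with chaperone activity in vitro, shared the high start and the low end. Its values were 1158 and 1600 in zygotes, 72.0 and 218 in octants, 72.4 and 286 in globular, 515 and 352 in heart, 118 and 307 in torpedo, 93.3 and 106 in bent and 0 and 14.7 in mature embryos. The 2 libraries of a stage often differed several-fold, and the octant, globular and torpedo libraries overlapped. After the octant fall (-3.39 ± 0.76, limma adjusted p = 0.0015) only the last step passed, with a log2 change of -3.58 ± 0.76 (limma adjusted p = 0.00084) that left 0 and 15 reads. Without globular library 2 the rise from globular to heart passed as well (log2 change 2.49, adjusted p = 0.0419).

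In the LEA14 group, AT1G01470 (LEA14) had the steepest last step of the 9 genes. It stood at 131 and 173 in zygotes, 37.9 and 42.8 in octants, 6.58 and 6.36 in globular, 18.1 and 9.01 in heart, 3.28 and 8.44 in torpedo, 12.4 and 13.3 in bent and 27882 and 22751 in mature embryos. It thus lay under 20 in all 8 libraries from globular to bent and far above that in both mature ones. The falls into the octant stage (-1.80 ± 0.45, limma adjusted p = 0.0033) and the globular stage (-2.08 ± 0.45, limma adjusted p = 0.0022) both passed, and the last step was 10.55 ± 0.45 on the log2 scale (limma adjusted p = 6.3e-10). With median-centred libraries the small steps into torpedo (-1.28, adjusted p = 0.044) and bent embryos (1.46, 0.030) passed too.

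AT2G46140, annotated as LEA27, was the flattest. It gave 131 and 136 in zygotes, 273 and 160 in octants, 382 and 262 in globular, 189 and 184 in heart, 213 and 144 in torpedo, 43.8 and 14.9 in bent and 779 and 356 in mature embryos. The bent libraries lay below all others, and the mature libraries overlapped the globular ones. It fell into the bent stage (-2.58 ± 0.51, limma adjusted p = 0.0020) and then rose (4.14 ± 0.51, limma adjusted p = 6.4e-06). Its mature level passed against the zygote (1.95 ± 0.51, limma adjusted p = 0.0034), but not without mature library 1 (adjusted p = 0.0563). The step from octant to globular passed as a rise with median-centred libraries (1.38, adjusted p = 0.047). That from globular to heart passed as a fall with median-centred libraries (-1.58, adjusted p = 0.030), in edgeR (0.040) and in DESeq2 (0.021).

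**Figure D2:**
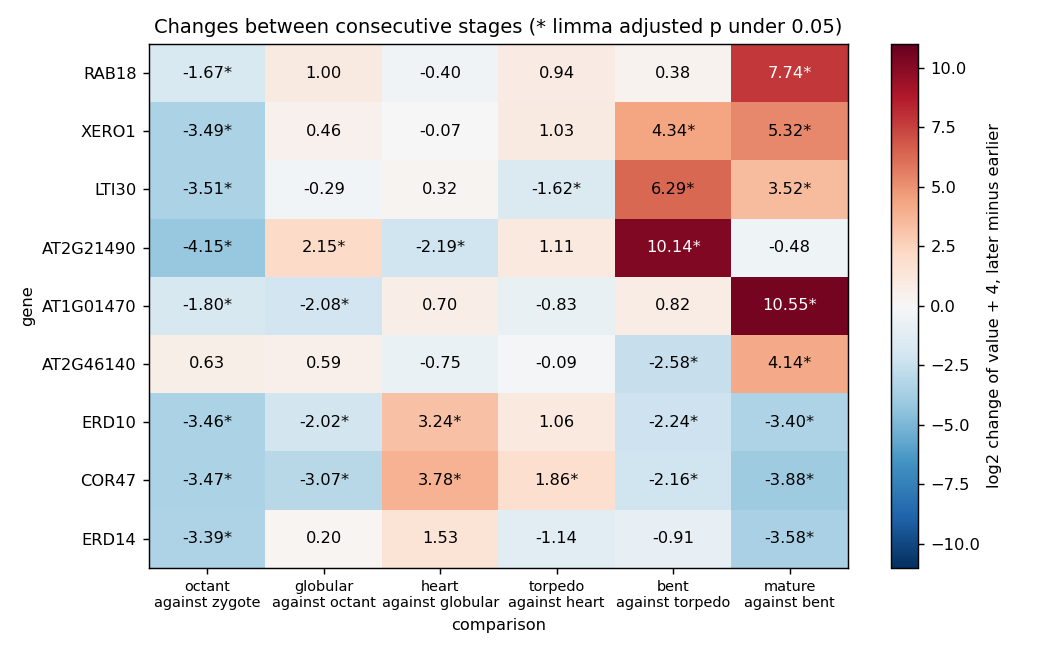
Log2 change of value + 4 for each of the 9 genes (rows) between consecutive stages (columns), red for higher and blue for lower in the later stage, with an asterisk where the limma adjusted p was under 0.05. The first column holds 8 falls, and the last holds 5 rises and 3 falls, with RAB18 at 7.74 and AT1G01470 at 10.55.

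Counted over the middle steps, few of the 9 genes moved together. From octant to globular 1 rose and 3 fell, beside 7.02% and 31.5% of all tested genes. From globular to heart 2 rose and 1 fell (27.7% and 6.90% of all), and from heart to torpedo 1 rose and 1 fell (16.3% and 9.17%). From torpedo to bent XERO1, LTI30 and AT2G21490 rose, 3 of 9 beside 5.46% of all genes, and ERD10, COR47 and AT2G46140 fell, 3 of 9 beside 22.0%. From bent to mature 5 rose and 3 fell, beside 18.2% and 40.1%. With median-centred libraries the split over all genes turned to 8199 higher and 4111 lower, from 3420 and 7521, while the 9 genes gave the same 5 and 3. The 5 were RAB18, XERO1, LTI30, AT1G01470 and AT2G46140, and the 3 were ERD10, COR47 and ERD14. These 8 calls passed under every alternative and with any library left out, with a highest adjusted p of 0.0165 for ERD14. The median log2 change of the 9 genes over this last step was 3.52, and that of all tested genes -0.57.

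Between the ends of the series, mature against zygote, 6 of the 9 genes were higher and 3 lower, beside 29.6% and 35.6% of all tested genes. ERD10, COR47 and ERD14 were lower, with log2 changes of -6.83, -6.95 and -7.30 (limma adjusted p = 3.4e-08, 1.1e-07 and 8.0e-07). RAB18, XERO1, AT1G01470, AT2G21490 and LTI30 were higher by 7.98, 7.60, 7.35, 6.59 and 4.71 (limma adjusted p at most 2.3e-06). The limma F test over the 7 stages called all 9 genes, as it did 97.1% of tested genes. By that statistic AT1G01470 ranked 77 of 18744, RAB18 108, AT2G21490 190, XERO1 335 and LTI30 470, with AT2G46140 last of the 9 at 11501.

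The summed signal of the 9 genes changed in size and in make-up. It was 5588 and 6193 in zygotes, 1031 and 1385 in octants, 3037 and 3154 in torpedo, 25250 and 24056 in bent and 707941 and 462046 in mature embryos. RAB18 supplied 31.5% and 34.7% of it in zygotes, 74.6% and 58.9% in globular embryos, 8.07% and 10.8% in bent embryos and 89.3% and 82.7% in mature embryos. AT2G21490 supplied 87.2% and 81.0% in bent embryos, so the leading dehydrin changed from AT2G21490 to RAB18 between the last stages. Per kilobase of exon, the zygote order of mean levels was RAB18 (1794), ERD14 (1167), ERD10 (646), COR47 (330) and XERO1 (241). In mature embryos it was RAB18 (465605), XERO1 (46890), AT1G01470 (18781), AT2G21490 (17297) and LTI30 (3730), with ERD14, ERD10 and COR47 at 6.21, 3.25 and 0.970.

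**Figure D3:**
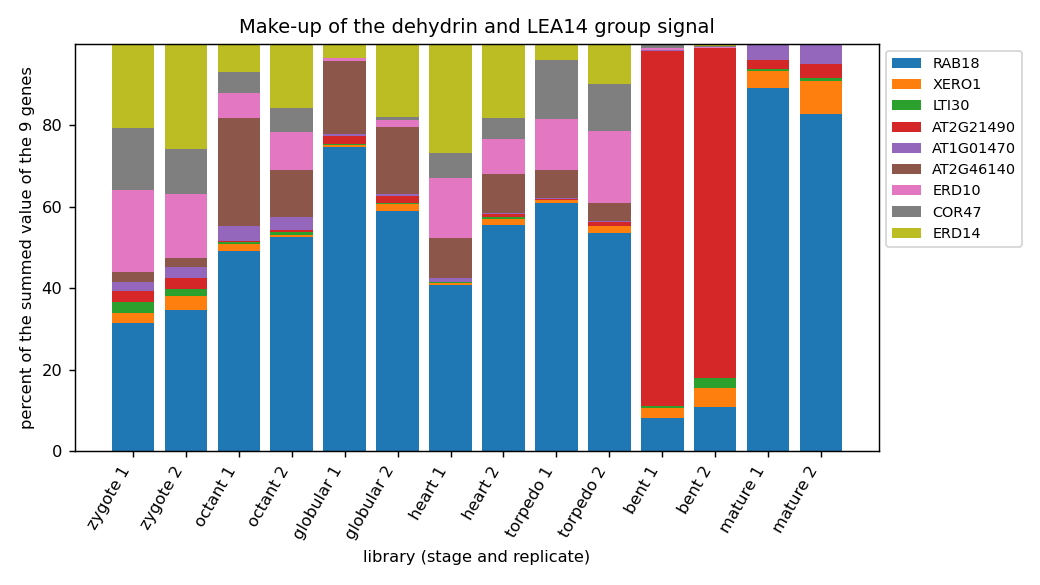
Percent of the summed normalised reads of the 9 genes that each gene supplied, as a stacked bar for each library from 0 to 100. AT2G21490 fills 87.2% and 81.0% of the bent bars and RAB18 89.3% and 82.7% of the mature bars.

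Ratios within 5 pairs were compared over stages by an exact permutation test of the between-stage F statistic (large values only) over 135135 groupings, adjusted over the 5 pairs. The tandem neighbours COR47 and ERD10 kept a mean log2 ratio between -1.52 in globular and -0.10 in bent embryos, and a difference between stages was not detected (exact permutation, adjusted p = 0.0798). It passed without globular library 2 (exact permutation, adjusted p = 0.0331). The tandem neighbours LTI30 and XERO1 ranged from -0.33 in zygotes to -3.36 in torpedo embryos (exact permutation, adjusted p = 0.0427), and ERD10 to ERD14 from -2.67 in globular to 1.25 in torpedo embryos (exact permutation, adjusted p = 0.0373). Both are fragile: the first was lost without any 1 library of the zygote, heart, torpedo, bent or mature stages (exact permutation, adjusted p up to 0.106). The second was lost without any 1 library of the zygote, heart or torpedo stages or without globular library 2 (exact permutation, adjusted p up to 0.132). The torpedo ratio of LTI30 to XERO1 rested on 0 reads of LTI30 in both libraries and was set by the added 4. Their mature ratio, -3.22, rested on at least 2650 reads of each gene in each library. RAB18 to AT2G21490 turned from 6.77 in heart to -3.17 in bent embryos (exact permutation, adjusted p = 0.0065), and AT1G01470 to AT2G46140 from -4.94 in globular to 5.57 in mature embryos (exact permutation, adjusted p = 0.00044). Both of the last kept their call with any library left out. The heart ratio of RAB18 to AT2G21490 rested on 0 and 14 reads of AT2G21490.

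**Figure D4:**
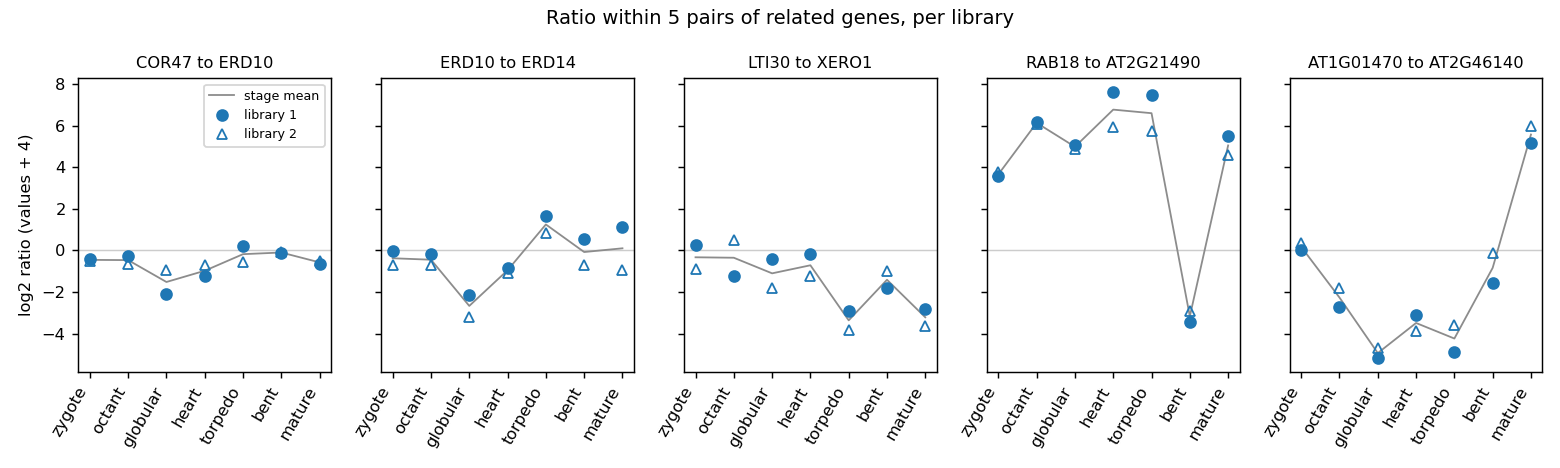
Log2 ratio (values + 4) within 5 gene pairs at each stage, with filled circles for library 1, open triangles for library 2 and lines through stage means. COR47 to ERD10 stays between mean ratios of -1.52 and -0.10, while RAB18 to AT2G21490 falls to -3.17 at the bent stage.

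Other genes of both families did not share one course. HIRD11, a small dehydrin that binds metal ions, started highest, at 31016 and 28727 in zygotes and 16962 and 20105 in octants. It then gave 1448 and 1983 in globular, 1727 and 1692 in heart, 754 and 1188 in torpedo, 547 and 247 in bent and 135 and 148 in mature embryos. Its libraries lay lower at nearly every later stage, with the largest step from octant to globular (-3.44 ± 0.39, limma adjusted p = 1.2e-05). The seed coat markers also summed highest in zygotes and octants. Unlike HIRD11, they were higher in octants (15058 and 15916) than in zygotes (4341 and 2782). Their part in the levels of HIRD11 was not tested. From zygote to octant HIRD11 was not called (-0.69, limma adjusted p = 0.144). HIRD11 was called down there with upper-quartile scaling (-1.41, adjusted p = 0.0043), median-centred libraries (-1.83, 0.00071), edgeR (-1.67, 0.0056) and DESeq2 (-1.92, 1.3e-06). Its last step (-1.36, adjusted p = 0.0078) turned to 0.023 with median-centred libraries (adjusted p = 0.959) and was not called by edgeR (adjusted p = 0.237), by DESeq2 (0.152) or without bent library 1 (0.128). AT4G39130, a dehydrin, lay at 11.2 or below until the bent stage and reached 350 and 231 in mature embryos (log2 change 5.21 ± 0.55, limma adjusted p = 1.7e-06). AT4G38410, a dehydrin, never exceeded 40.9 and passed no test between stages, though it passed the limma F test over all stages (adjusted p = 0.0207). Its rise from heart to torpedo passed without bent library 1 (adjusted p = 0.0318) or 2 (0.0336), its fall from torpedo to bent without bent library 1 (0.0022) and its fall from bent to mature without bent library 2 (0.0020). AT2G44060, annotated as LEA26, stood between 751 and 7394 until the bent stage and at 119 and 135 in mature embryos (log2 change from bent -3.38 ± 0.49, limma adjusted p = 2.8e-05), the opposite direction to AT1G01470 and AT2G46140.

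**Figure D5:**
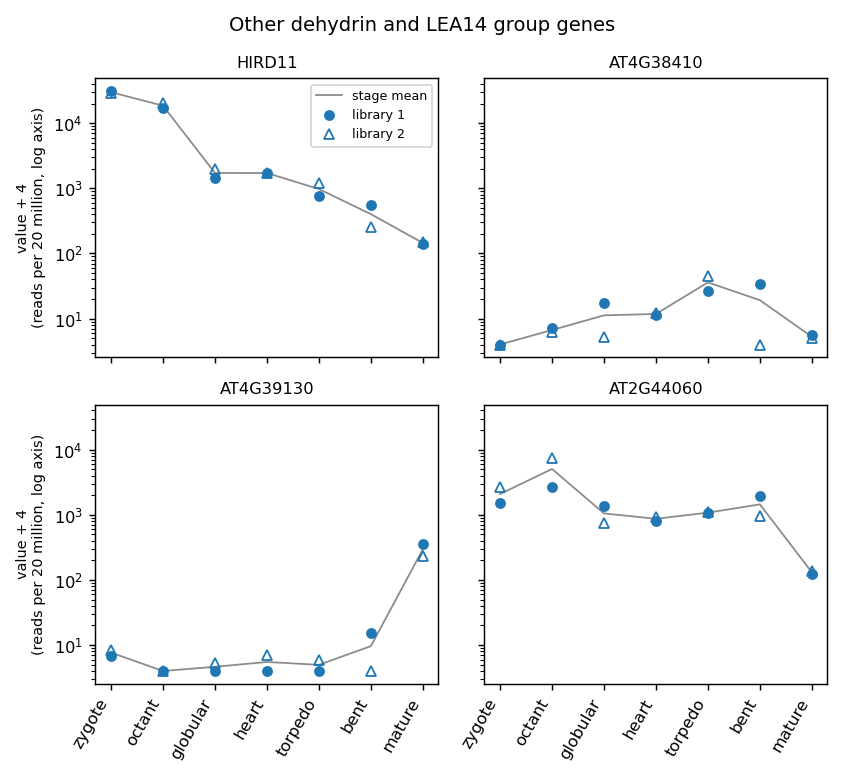
Normalised reads plus 4 (log axis) of 3 further dehydrins and LEA26 (AT2G44060) at the 7 stages, with filled circles for library 1, open triangles for library 2 and lines through stage means. HIRD11 runs from 31016 and 28727 in zygotes to 135 and 148 in mature embryos, and AT4G39130 appears at 350 and 231 in mature embryos.

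Among 13 other targets of cold and abscisic acid signals in the table, 5 rose and 2 fell from zygote to octant (median log2 change 0.49), beside 44.7% and 13.1% of all tested genes. From bent to mature 3 rose and 4 fell (median -0.54), beside 18.2% and 40.1%, and with median-centred libraries 7 rose and 2 fell. As counts over these steps the genes lay near the share of all genes in the deposited scaling, so the values of the genes of widest stage range are given. RD29B, a target of abscisic acid, was listed at 0 and 0 in zygotes, at 642 and 524 in bent and 9266 and 13220 in mature embryos (log2 change from bent 4.25, limma adjusted p = 1.1e-05). ADH1, alcohol dehydrogenase, reached 100018 and 118678 in mature embryos, and RD29A stood at 564 and 577 in octants, 3.28 and 3.25 in torpedo and 731 and 725 in mature embryos. P5CS1, which makes proline, ran the other way, from 4747 and 4456 in heart to 37.5 and 72.4 in mature embryos. RD29B, ADH1 and RD29A were high with RAB18 at maturity, but RD29A was also high in octants, where RAB18 was lowest. The seed coat markers summed highest in octants too, and their part in the level of RD29A was not tested. The list as a whole did not share the late rise. Mature against zygote, 5 of the 13 genes were higher and 8 lower (median log2 change -1.91), beside 29.6% and 35.6% of all tested genes.

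Among 19 regulators of these genes in the table, 9 rose and 6 fell from zygote to octant, beside 44.7% and 13.1% of all tested genes, and 3 rose and 11 fell from bent to mature (median log2 change -1.47), beside 18.2% and 40.1%. These counts moved with the scaling. From zygote to octant 2 rose with median-centred libraries, and 3 rose and 10 fell in DESeq2, and in the last step 6 rose and 7 fell with median-centred libraries. ABI5, a bZIP factor that binds ABREs in seeds, stood at 169 and 187 in bent and 2129 and 1583 in mature embryos. Its seed relatives bZIP67 and EEL were instead highest in bent embryos, bZIP67 at 4840 and 3270 with 15.6 and 47.0 at maturity, and EEL at 8229 and 7325 with 857 and 744 at maturity. ABI4, an AP2 factor of abscisic acid signalling, peaked in torpedo embryos at 1010 and 527.

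Stage patterns most like each gene's own were ranked over 15182 tested genes, those with a low highest stage mean being left out. The measure was the root mean square difference of log2(value + 4) across the 14 libraries, each gene centred on its mean. The closest gene to ERD10 was COR47, and the closest to COR47 was ERD10, at 0.54, with AT3G16180 (0.82) and AT1G60060 (0.78) next. LTI30 and XERO1 were each other's nearest among the 9 genes, at 1.32, but 19 genes lay nearer to LTI30 and 33 to XERO1. RAB18 was closest to HSFA9 (0.62), a seed heat-shock factor, and AT3G58450 (0.62). Centring leaves out the level. Before the mature stage HSFA9 was at most 2.95 and AT3G58450 at most 24.9, near the floor, where RAB18 was never under 507. In mature embryos HSFA9 gave 1748 and 1499. AT1G01470 was closest to AT4G37420 (0.57) and AT5G55135 (0.71), and AT2G46140 to AT3G55430 (0.40) and AT2G18780 (0.49). XERO1 had AtMT4a (0.83), a seed metallothionein, and PIRL8 (0.84), LTI30 had AT3G11930 (0.92) and AT1G16770 (1.01), ERD14 had AT5G07340 (0.63) and GTE7 (0.63), and AT2G21490 had AT1G04560 (1.00) and AT4G31830 (1.04).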

How the data were processed

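Per the labels' protocols, RNA of isolated whole embryos was amplified with the MessageAmp kit and made into TruSeq mRNA libraries. Per the submitters' processing notes, CASAVA, FastQC, Trimmomatic, STAR, HTSeq and DESeq2 were used with the TAIR10 build, versions and settings not given. The deposited values are a signal of normalised reads, scaled by the authors so that each of the 14 libraries sums to 20000000. All values (100%, within 0.001 of a whole number) are whole multiples of the value of 1 read, which gave the reads per library. Of 25517 rows, 103 named no gene and held 9.15 to 26.3% of the reads. They stayed out of every test. Genes with at least 10 normalised reads in at least 2 libraries (18744) were fitted with limma 3.58.1 in R 4.3.3 on log2(value + 4), with stage as the only term and a mean-dependent prior (7 residual and 7.81 prior degrees of freedom). Benjamini-Hochberg adjustment ran over all tested genes within a comparison, at 0.05, and the fit was tested on simulated data. The recovered read counts, never the deposited values, entered edgeR 4.0.16 (quasi-likelihood) and DESeq2 1.42.0 as alternatives. The table holds locus names and no coordinates; sequences, positions, lengths and symbols came from RefSeq TAIR10.1, matched by locus. The counting was not stated to use strand. All 9 genes, 4 related genes, the 2 genes nearest each of the 9, and the 4 genes of widest stage range in each pathway list are named. The genes and lists were chosen with earlier results of these data known. List genes outside the table were not analysed here.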

Additional observations from a re-analysis of the deposited data

How the results depend on the processing

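With 2 libraries a stage and 6078186 to 30803336 reads a library, changes of genes near 10 normalised reads rested on a handful of reads. All 9 genes passed the F test under every alternative, and the octant falls, the last step and mature against zygote kept their counts under every alternative setting. Counts for the middle steps moved with the scaling, the pseudocount and the filter. From heart to torpedo the 9 genes gave 0 rises with a pseudocount of 1, no filter, upper-quartile scaling or median-centred libraries, and 0 falls with a pseudocount of 16, no filter or upper-quartile scaling (2 when median-centred). From octant to globular 2 rose under upper-quartile scaling, edgeR and DESeq2 and 3 when median-centred, where ERD10's fall was lost. From globular to heart 3 fell when median-centred or in DESeq2 and 2 in edgeR. From torpedo to bent COR47's fall was lost with a pseudocount of 1, with upper-quartile scaling and with median-centred libraries. Into the bent stage a rise of AT1G01470 passed when median-centred, and a rise of RAB18 passed in DESeq2. The cause was not tested. ERD10 to ERD14 gave p = 0.0997 (exact permutation, adjusted) with a pseudocount of 1, and the last step of HIRD11 reversed to 0.023 when median-centred.

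Cold and abscisic acid genes fell from zygote to octant in 1 case with a pseudocount of 1, and rose from bent to mature in 7 (2 fell) when median-centred and in 5 in edgeR and DESeq2. Regulators rose from zygote to octant in 2 cases when median-centred, 5 in edgeR and 3 in DESeq2 (10 fell), and from bent to mature 6 rose and 7 fell when median-centred.

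Over all genes, upper-quartile scaling gave 3854 falls from zygote to octant, 2372 rises and 3589 falls to globular, 2525 and 2300 to heart, and 1839 falls from torpedo to bent. Median-centred libraries gave 3966 and 5519 to octant, 3239 and 2845 to globular, 1842 and 3227 to heart, 1965 and 3132 to torpedo, 1861 and 1740 to bent, and 8199 and 4111 to mature. edgeR gave 4756 and 4381 to octant, 2202 and 3218 to globular, 2144 and 2190 to heart, and 1637 and 1565 to bent. DESeq2 gave 3806 and 4994, 2574 and 2951, 2103 and 2803, and 1921 and 1684 for the same steps.

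With 1 library left out in turn, the 9 genes gave 8 to 8 octant falls and 0 to 0 rises, 0 to 2 rises and 2 to 3 falls to globular, 2 to 3 and 0 to 1 to heart, 0 to 1 and 0 to 1 to torpedo, 3 to 3 and 1 to 3 to bent, and 5 to 5 and 3 to 3 to mature. Mature against zygote gave 5 to 6 rises and 3 falls. Over all genes the ranges of rises and falls were 6302 to 8555 and 1628 to 2551 to octant, 791 to 1400 and 3411 to 6128 to globular, 3063 to 5450 and 792 to 1365 to heart, 1506 to 3261 and 860 to 1892 to torpedo, 631 to 1089 and 1756 to 4426 to bent, 2744 to 3529 and 6211 to 7688 to mature, and 4589 to 5646 and 5627 to 6769 for mature against zygote. Cold and abscisic acid genes gave 5 rises and 1 to 2 falls to octant and 3 to 4 of each to mature, and regulators 4 to 9 and 4 to 7 to octant and 2 to 3 and 9 to 12 to mature. Adjusted exact permutation p of the ratios ranged from 0.0331 to 0.173 for COR47 to ERD10, 0.0121 to 0.132 for ERD10 to ERD14, 0.0396 to 0.106 for LTI30 to XERO1, 0.00389 to 0.0229 for RAB18 to AT2G21490 and 0.000444 to 0.00411 for AT1G01470 to AT2G46140. Of the single-gene comparisons with 1 library left out, 1233 kept their side of the threshold, 26 lost a call and 15 gained one.

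The labels name no pairing of samples by replicate number. Over 21 stage pairs, deviations of same-numbered libraries correlated at -0.11 to 0.30, 3 of them above 0.1. These were globular with torpedo (0.299), globular with bent (0.162) and torpedo with bent (0.103). Globular library 1 and torpedo library 1 were also the shallowest, at 6078186 and 6097762 reads. Whether these stages shared a batch was not tested. The fit with the replicate number as a block called 8 octant falls, 5 rises and 3 falls in the last step, and changed no call of the 9 genes.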
